A study of Mus musculus with 4 samples.

Results

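The genes described here are ligands and receptors of the epidermal growth factor (EGF) family in mouse skin. They were taken by gene symbol from a table of read counts, which lists 56953 genes. The symbols Epgn, Tgfa, Nrg1, Areg, Hbegf, Ereg, Btc, Egfr, Erbb2 and Erbb3 gave 11 rows for 10 genes, since Nrg1 stands on 2 rows. Of these rows 10 had enough reads to be tested, among 11388 tested genes. The row left out is a second Nrg1 entry (ENSMUSG00000118541.2, 186 bases, inside the exons of the main Nrg1 gene) with 0 reads in all 4 libraries. Since every base of it also belongs to the main gene, on the same strand, the 0 reads cannot show whether it was transcribed. The members were chosen by symbol with their read counts and fold changes between NEDD8i and DMSO in these libraries already in view, so the members' fold changes and calls below are a description and not an independent test of the family.

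RNA from the dorsal skin of C57BL/6J mice, wild type in genotype and treated topically for 3 days, was made into 3′ tag libraries, which read the end of each polyadenylated transcript and so do not tell isoforms apart. For 2 libraries the skin had received NEDD8i (10 µM), and the labels give no other name for the compound. For the other 2 libraries it had received DMSO, the solvent. No age is given, nor whether each library is a mouse of its own, so the spread between libraries may be technical.

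EGF family ligands are made as membrane-anchored precursors that metalloproteinases cut free from the cell surface. They bind receptor tyrosine kinases of the ErbB family, which then pair, phosphorylate each other and start the Ras-MAP kinase and PI3 kinase cascades. In epidermis the receptor Egfr is best known for keeping basal keratinocytes dividing, for keratinocyte migration into wounds and for hair follicle growth, and its ligands come largely from the keratinocytes themselves.

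EGF family ligands bind their receptors through a folded domain held together by 6 cysteines, and its coding sequence is shown because it is the feature that makes these genes a family. A search of the GENCODE M21 protein-coding transcripts for 6 cysteine codons separated by 7, 4 or 5, 10 to 13, 1 and 8 other codons found it in 6 ligands. Hbegf was left out of this search, and its sequence is not shown here. Cysteine codons are in capitals, each line reads 5′ to 3′, and names are those of the transcripts.
Epgn-201: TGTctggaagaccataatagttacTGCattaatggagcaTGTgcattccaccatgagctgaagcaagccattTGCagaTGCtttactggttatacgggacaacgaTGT
Tgfa-201: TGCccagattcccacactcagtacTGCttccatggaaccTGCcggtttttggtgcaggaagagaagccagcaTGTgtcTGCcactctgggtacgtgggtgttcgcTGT
Nrg1-201: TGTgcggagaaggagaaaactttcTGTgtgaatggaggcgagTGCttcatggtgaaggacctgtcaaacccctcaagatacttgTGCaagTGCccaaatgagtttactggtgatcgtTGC
Areg-201: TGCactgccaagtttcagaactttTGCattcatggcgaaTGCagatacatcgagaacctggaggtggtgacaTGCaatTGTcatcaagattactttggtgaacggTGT
Ereg-201: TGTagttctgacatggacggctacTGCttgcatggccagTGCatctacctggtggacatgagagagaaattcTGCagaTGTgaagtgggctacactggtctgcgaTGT
Btc-201: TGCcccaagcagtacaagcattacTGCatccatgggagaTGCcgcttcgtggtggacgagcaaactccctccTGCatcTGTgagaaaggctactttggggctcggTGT
Epgn, Tgfa, Areg, Ereg and Btc had the same spacing, with 7, 4, 10, 1 and 8 codons between cysteines and 36 codons in all. Nrg1 had gaps of 7, 5, 13, 1 and 8 codons and 40 codons in all. Base identity between the frames of 36 codons ran from 45.4% for Ereg and Tgfa to 62.0% for Btc and Tgfa, and the Epgn frame shared between 47.2% (with Btc) and 50.9% (with Areg) of its 108 bases with the others. A second version of the Nrg1 frame, in another Nrg1 transcript, differed from the one shown in 12 of 120 bases, the first of them in codon 32. Reads from the 3′ end cannot say which version was transcribed.

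The libraries held between 5639791 (DMSO replicate 2) and 8856572 reads (NEDD8i replicate 1), of which 52.6% to 61.7% fell on ribosomal RNA genes. Levels are given as CPM (read counts scaled to library size) after TMM scaling, which adjusts library sizes on the assumption that most genes do not differ, and 3 reads correspond to 0.359 to 0.541 CPM. Intervals and floors cover counting error only, since nothing says that reads were collapsed to molecules. Keratinocyte genes were plentiful, and the basal keratinocyte list summed to 3019, 5733, 5111 and 4414 CPM in DMSO replicates 1 and 2 and NEDD8i replicates 1 and 2. Endothelial genes summed to only 0.361 to 2.10 CPM, with Cdh5 at 0 in all 4 libraries, although the label speaks of full-thickness skin. DMSO replicate 1 stood apart by hair RNA: 13 hair shaft and inner root sheath genes summed to 6967 CPM there, against 20.8 CPM in DMSO replicate 2, 15.8 CPM in NEDD8i replicate 1 and 432 CPM in NEDD8i replicate 2. Values without that library are given beside each result it changes.

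The ligands behaved differently from one another after NEDD8i. Epgn, Tgfa and Nrg1 rose strongly. Areg and Hbegf were higher in both NEDD8i libraries by less, Ereg was not separated between the groups, and Btc was lower in both NEDD8i libraries. By edgeR's quasi-likelihood fit over all genes, with Benjamini-Hochberg adjustment at 0.05, 3 of the 10 tested members were higher and 0 lower, where 0.667% of tested genes were higher and 0.114% lower. At an unadjusted p of 0.05, 6 members were higher and 1 lower, against 8.62% and 7.87% of all genes. DESeq2 called 4 members higher and 1 lower, where it called 2.06% of its genes higher and 1.52% lower. Limma-voom called 2 members higher and 0 lower, against 0.483% and 0.0790% of all genes. The 2 groups did not overlap for 7 of the 10 members, against 47.9% of all tested genes. For 6 members both NEDD8i libraries were above both DMSO libraries, and for 1 below, against 25.0% and 22.9%. The median log2 fold change was 1.02 over the members, 1.70 over the 7 ligands and -0.35 over the 3 receptors, and -0.0032 over all tested genes.

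**Figure D1:**
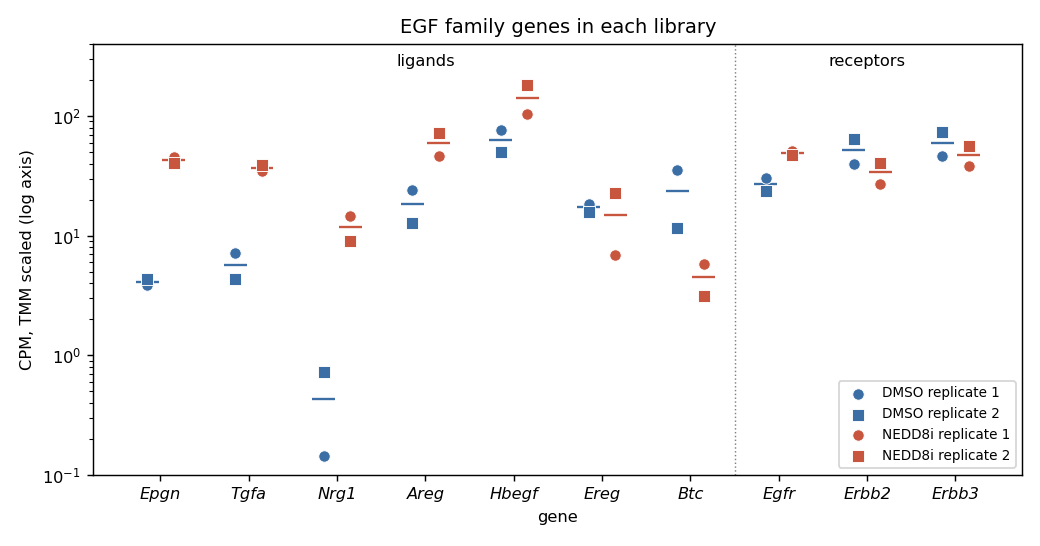
Level of each EGF family gene in each library, in TMM-scaled CPM on a log axis, with blue for DMSO, red for NEDD8i, circles for replicate 1, squares for replicate 2 and short lines for group means. Epgn, Tgfa and Nrg1 show wide gaps between the groups, from 4.33 to 40.7 CPM for Epgn, while Ereg, Erbb2 and Erbb3 overlap.

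Epgn (ENSMUSG00000035020.12) encodes epigen, an Egfr ligand of epithelia. It had 27 and 24 reads in DMSO libraries 1 and 2, and 370 and 340 reads in NEDD8i libraries 1 and 2. Libraries within a group were nearly equal, at 3.85 and 4.33 CPM in DMSO and 45.8 and 40.7 CPM after NEDD8i, and the lower NEDD8i library was 9.40 times the higher DMSO library. The group means were 4.09 ± 0.343 and 43.2 ± 3.59 CPM (SD, n = 2 libraries each), a log2 fold change of 3.40 (SE 0.33). Epgn passed the threshold in the fit of all libraries and in all 13 alternatives, with a log2 fold change of 3.30 to 3.50 when 1 library was left out.

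Tgfa (ENSMUSG00000029999.15) encodes transforming growth factor alpha, which keratinocytes release to stimulate their own Egfr. Its reads numbered 50 and 24 in DMSO (replicates 1 and 2), against 282 and 324 in NEDD8i (replicates 1 and 2). In CPM this was 7.12 and 4.33 against 34.9 and 38.8, so that the groups were 4.90-fold apart at their closest and the DMSO libraries differed by 1.64-fold between themselves. The log2 fold change was 2.67 (SE 0.36), or 2.39 to 3.07 with 1 library left out. Tgfa passed the threshold in all of these fits, and missed it only with library sizes left without TMM (log2 fold change 2.43, edgeR adjusted p = 0.0515). An antisense gene model shares 118 exonic bases with Tgfa but had 0 reads in every library.

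Nrg1 (ENSMUSG00000062991.10) encodes neuregulin 1, which binds Erbb3 and Erbb4 and not Egfr. It was close to the detection floor in DMSO, with 1 and 4 reads in replicates 1 and 2, and had 118 and 76 reads in NEDD8i replicates 1 and 2. The levels were 0.142 and 0.722 CPM against 14.6 and 9.10 CPM. All reads pooled, the NEDD8i level was 29.7 times the DMSO level, with a 95% counting interval of 12.5 to 92.4 (exact Clopper-Pearson on the split of reads). The fitted log2 fold change of 4.81 (SE 0.69) was the largest of the family and also the least precise. It was 3.99 without DMSO replicate 1, 6.24 without DMSO replicate 2 and 5.08 without NEDD8i replicate 2. Without NEDD8i replicate 1 it was 4.42 and no longer passed (edgeR adjusted p = 0.06), nor did it pass with limma-voom (4.89, adjusted p = 0.0968).

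By Euclidean distance between log2 CPM profiles centred on each gene's mean, over the 4 libraries, the tested genes most like Nrg1 were Il33 (distance 0.418), Mmp3 (0.511) and Sh2d5 (0.675). Il33 encodes an alarmin cytokine and Mmp3 a matrix metalloproteinase. Il33 had 64 and 92 reads in DMSO (replicates 1 and 2) against 1816 and 1449 in NEDD8i (replicates 1 and 2). In each of these genes, as in Nrg1, the DMSO library with the lower level was replicate 1 and the NEDD8i library with the higher level was replicate 1. With 4 libraries in 2 groups, such a likeness rests mostly on the difference between the groups.

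Areg (ENSMUSG00000029378.6) encodes amphiregulin, an Egfr ligand of keratinocytes and immune cells. Its reads numbered 168 and 70 in DMSO (replicates 1 and 2), against 376 and 605 in NEDD8i (replicates 1 and 2), or 23.9, 12.6, 46.5 and 72.4 CPM. The groups did not overlap, but the DMSO libraries differed by 1.89-fold and the NEDD8i libraries by 1.56-fold, against 1.94-fold between the nearest libraries of the groups. The log2 fold change of 1.70 (SE 0.39) did not pass the threshold. It was 2.22 and passed without DMSO replicate 1, and 1.33 and passed without DMSO replicate 2, fits in which the single DMSO library shows no spread of its own. With all 4 libraries it also passed with DESeq2 (1.68, adjusted p = 0.00546), in edgeR without a filter on low counts (1.72, adjusted p = 0.000135) and in edgeR with the crossed block, a setting added after seeing the data that pairs replicate 1 of each group with replicate 2 of the other. Over all alternatives the adjusted p ranged from 7.49e-07 to 0.478.

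Hbegf (ENSMUSG00000024486.7) encodes heparin-binding EGF-like growth factor, a ligand of Egfr and Erbb4 that is released early in wounded epidermis, and its gene spans 36637980 to 36648858 on the minus strand of chromosome 18. Its reads numbered 534 and 275 in DMSO (replicates 1 and 2), against 835 and 1515 in NEDD8i (replicates 1 and 2). The levels were 76.0, 49.6, 103 and 181 CPM in that order. The NEDD8i libraries differed by 1.76-fold from each other, more than the 1.36-fold gap between the groups. Its log2 fold change was 1.18 (SE 0.37), which did not pass, and it ranged from 0.70 without NEDD8i replicate 2 to 1.55 without NEDD8i replicate 1. It passed without DMSO replicate 1 (1.51) and, with all libraries, without a filter on low counts (1.20).

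Ereg (ENSMUSG00000029377.6) encodes epiregulin, a ligand of Egfr and Erbb4. It had 130 and 88 reads in DMSO replicates 1 and 2 against 56 and 189 in NEDD8i replicates 1 and 2. The NEDD8i libraries lay on either side of both DMSO libraries, at 6.93 and 22.6 CPM around 18.5 and 15.9 CPM. The log2 fold change was -0.22 (SE 0.51), and it turned to 0.41 without NEDD8i replicate 1 and was -1.32 without NEDD8i replicate 2. The antisense model Gm19610 shares 141 exonic bases with Ereg and had 0, 0, 5 and 3 reads in DMSO replicates 1 and 2 and NEDD8i replicates 1 and 2. The sources used here do not give the strand setting of the counting.

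Btc (ENSMUSG00000082361.7) encodes betacellulin, a ligand of Egfr and Erbb4 that is made in hair follicles among other tissues. Of the 7 ligands among the members, only Btc had both NEDD8i libraries below both DMSO libraries. It had 249 and 64 reads in DMSO (replicates 1 and 2) against 47 and 26 reads in NEDD8i (replicates 1 and 2). The levels were 35.5, 11.5, 5.82 and 3.11 CPM, and the DMSO libraries differed by 3.07-fold, against 1.99-fold between the nearest libraries of the groups. The log2 fold change of -2.40 (SE 0.57) did not pass the threshold. DMSO replicate 1, the library with the most hair RNA, was also the highest for Btc, and without it the log2 fold change was -1.38. NEDD8i replicate 2 had 432 CPM of hair genes, the most among the other libraries, and the lowest Btc. The part of hair RNA in the Btc difference was not tested. Btc was called lower by DESeq2 (log2 fold change -2.42), with the replicate number as a block (-2.27), with the crossed block, without a filter on low counts (-2.38), and when either DMSO library was left out (-1.38 without replicate 1 and -2.97 without replicate 2).

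**Figure D2:**
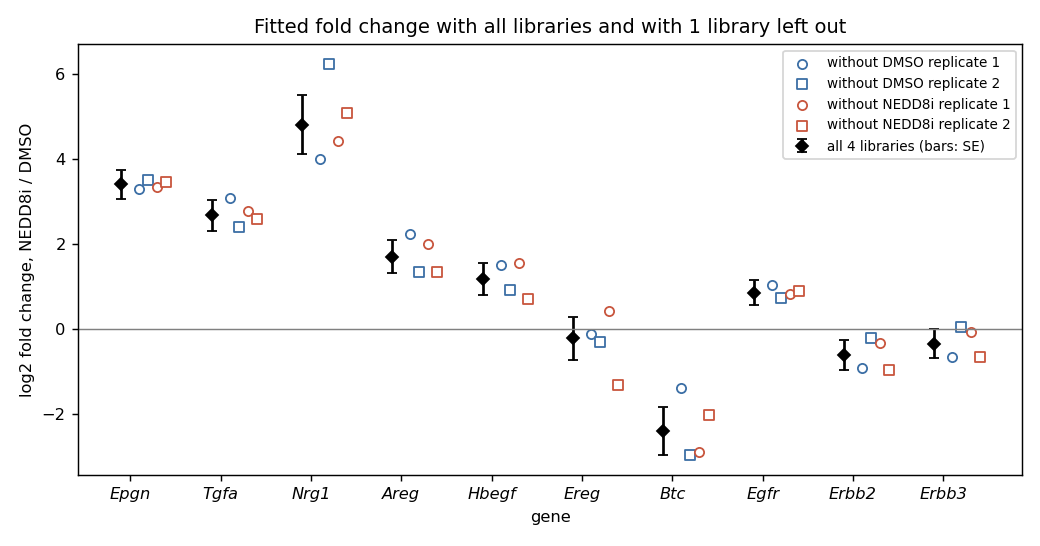
Log2 fold change of NEDD8i over DMSO for each EGF family gene, with black diamonds and SE bars for the fit of all 4 libraries and open symbols for fits without 1 library. Epgn stays between 3.30 and 3.50, Nrg1 spreads from 3.99 to 6.24, and Ereg and Erbb3 change sign.

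Of the 3 receptors, 0 passed the threshold (1 higher and 0 lower at an unadjusted p of 0.05, and 0 by DESeq2 or limma-voom). Egfr (ENSMUSG00000020122.17), the receptor of most of these ligands, had 212 and 132 reads in DMSO (replicates 1 and 2), against 410 and 395 reads in NEDD8i (replicates 1 and 2). At 30.2 and 23.8 CPM against 50.7 and 47.3 CPM the groups did not overlap, and the lower NEDD8i library was 1.57 times the higher DMSO library. Its log2 fold change was 0.86 (SE 0.29), with 0.72 to 1.03 when 1 library was left out. It passed only without DMSO replicate 1 (1.03).

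Erbb2 (ENSMUSG00000062312.6) encodes a receptor without a known ligand of its own that pairs with the other ErbB receptors. Its reads numbered 279 and 354 in DMSO (replicates 1 and 2), against 217 and 341 in NEDD8i (replicates 1 and 2), or 39.7, 63.9, 26.8 and 40.8 CPM. NEDD8i replicate 2 and DMSO replicate 1 were nearly equal, so the groups overlapped. The log2 fold change was -0.61 (SE 0.35). It was -0.93 and passed without DMSO replicate 1, and was -0.21 without DMSO replicate 2. Mien1, on the opposite strand, shares 9 exonic bases with Erbb2.

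Erbb3 (ENSMUSG00000018166.9) encodes the neuregulin receptor, whose own kinase activity is weak and which signals mainly by pairing with Erbb2. It had 324 and 407 reads in DMSO (replicates 1 and 2) against 307 and 467 in NEDD8i (replicates 1 and 2). The levels of 46.1, 73.4, 38.0 and 55.9 CPM overlapped. The log2 fold change was -0.35 (SE 0.34), and 0.044 without DMSO replicate 2. For both Erbb2 and Erbb3 the library with the higher level was replicate 2 in each group.

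Epgn, Ereg, Areg and Btc lie side by side on chromosome 5, in a stretch of 376 kb from 91175323 to 91550853 in the deposited table (coordinates taken to be GRCm39). Epgn (91175323 to 91183074), Ereg (91222481 to 91241505) and Areg (91287458 to 91296291) are on the plus strand and Btc (91505120 to 91550853) on the minus strand. Along the stretch the log2 fold changes were 3.40 for Epgn, -0.22 for Ereg, 1.70 for Areg and -2.40 for Btc, so that genes whose starts lie within 112 kb of each other ranged from -0.22 to 3.40. Differences between genes were not tested. The 3 further gene models between them, Gm19610, Gm23092 and Gm19619, had at most 10 reads in any library and were not tested. On the outer side of Epgn, Mthfd2l had 11 and 6 reads in DMSO (replicates 1 and 2) against 28 and 14 in NEDD8i (replicates 1 and 2) (log2 fold change 0.93, SE 0.71, edgeR adjusted p = 0.571). Beyond Btc, Parm1 had 67 and 11 reads against 6 and 10 (log2 fold change -2.56, SE 0.80, edgeR adjusted p = 0.168). Parm1, like Btc, was highest in DMSO replicate 1.

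**Figure D3:**
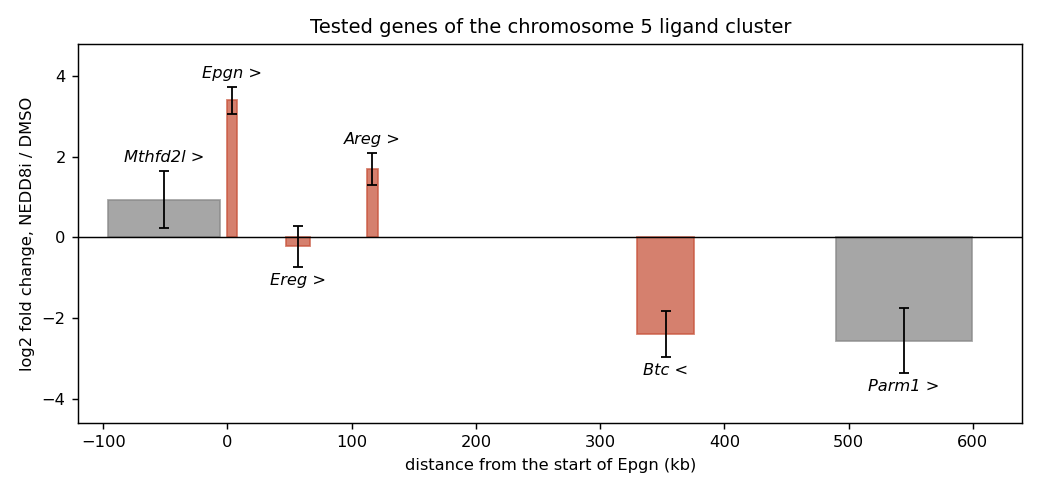
Log2 fold change of NEDD8i over DMSO for the tested genes of the chromosome 5 ligand cluster and the nearest gene on each side, by distance from the start of Epgn in kb. Bars span the genes, error bars are SE, red marks EGF family ligands, and arrowheads give the strand: Epgn at 3.40 and Btc at -2.40 lie at opposite ends.

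The remaining members lie apart. Tgfa is on chromosome 6 (86172205 to 86252701, plus strand) and Nrg1 on chromosome 8 (32304579 to 33374825, minus strand). Egfr (16702203 to 16868158) and Erbb2 (98303296 to 98328542) are both on the plus strand of chromosome 11, and Erbb3 is on the minus strand of chromosome 10 (128403392 to 128425521).

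Promoters of 3 neighbours in the cluster are shown because these genes, though close together, hold the 2 highest and the lowest fold changes of the cluster. They are RefSeq promoters on GRCm38.p6, a different build from the table's coordinates, and run from 250 bases before to 50 bases after the annotated start: Epgn at chr5:91027267-91027566 (plus strand), Areg at chr5:91139349-91139648 (plus strand) and Btc at chr5:91402945-91403244 (minus strand). Capitals mark matches to any of 6 motifs searched on both strands.
Epgn: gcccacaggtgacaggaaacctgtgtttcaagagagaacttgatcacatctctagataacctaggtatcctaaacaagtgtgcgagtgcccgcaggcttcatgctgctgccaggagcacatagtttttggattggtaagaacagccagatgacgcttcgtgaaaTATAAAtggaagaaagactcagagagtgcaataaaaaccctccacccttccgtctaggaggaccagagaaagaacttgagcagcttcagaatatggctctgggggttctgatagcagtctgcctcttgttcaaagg
Areg: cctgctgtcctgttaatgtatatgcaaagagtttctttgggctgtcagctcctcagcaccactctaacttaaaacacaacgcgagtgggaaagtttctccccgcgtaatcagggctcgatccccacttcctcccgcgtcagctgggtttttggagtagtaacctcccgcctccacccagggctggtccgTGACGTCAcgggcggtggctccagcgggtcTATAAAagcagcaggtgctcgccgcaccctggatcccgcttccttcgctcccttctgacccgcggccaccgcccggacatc
Btc: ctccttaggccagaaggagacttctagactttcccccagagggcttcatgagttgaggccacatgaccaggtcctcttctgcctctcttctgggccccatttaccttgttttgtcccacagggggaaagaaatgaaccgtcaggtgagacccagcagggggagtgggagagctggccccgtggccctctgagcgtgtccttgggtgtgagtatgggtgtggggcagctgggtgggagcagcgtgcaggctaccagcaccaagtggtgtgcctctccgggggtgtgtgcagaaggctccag
The motifs were AP-1 (TGANTCA), CRE (TGACGTCA), NF-kB (GGGNNTTCC), STAT (TTCNNNGAA), TEAD (GGAATG) and the TATA box (TATAAA). The CRE letters do not contain the AP-1 letters, and no other motifs overlap here. Areg held a CRE beginning 61 bases before the start and a TATA box beginning 31 bases before it. Epgn held TATAAA beginning 86 bases before the start, and Btc held none of the 6. These positions and windows hold for the RefSeq starts only. Other annotated starts of these genes were not searched, and another start would shift the positions. Among all 32851 RefSeq promoters, 1.79% held the CRE and 13.6% the TATA box. Promoters were matched for 6 of the 10 members, with Hbegf left out of the search. The AP-1, NF-kB and STAT letters, present in 7.81%, 5.82% and 8.30% of all promoters, were in none of those 6 windows. Tgfa and Egfr held none of the 6 motifs, and Erbb2 held the TEAD letters (14.7% of all promoters) once. A match is a run of letters and was not tested as a binding site.

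Other genes of the pathway were followed from lists of 63 genes, of which 57 were tested. In edgeR 0 of 57 passed in either direction, where 0.782% of all tested genes did. At an unadjusted p of 0.05, 4 were higher and 5 lower, near the shares of 8.62% and 7.87% over all tested genes. DESeq2 called 1, where it called 3.58% of its genes, and limma-voom 0, where it called 0.562%. The median log2 fold change was 0.05. Among the other ligands and receptors Egf had 1 read in all 4 libraries together, and Nrg3 and Erbb4 had 0, a count that in the shallowest library is compatible with a level of up to 0.541 CPM. Nrg4 had 0 and 7 reads in DMSO replicates 1 and 2 and 1 in each NEDD8i library. Nrg2, a further neuregulin, had 91 and 20 reads in DMSO (replicates 1 and 2) against 23 and 19 in NEDD8i (replicates 1 and 2) (log2 fold change -1.70, SE 0.63, edgeR adjusted p = 0.223), so that DMSO replicate 1 alone was high.

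The sheddases that free the ligands gave no call. Of 11 tested sheddases and regulators 6 had a positive log2 fold change, with a median of 0.06. Adam17, the main sheddase of Tgfa, Areg and Hbegf, had 311 and 300 reads in DMSO (replicates 1 and 2) against 544 and 404 in NEDD8i (replicates 1 and 2) (log2 fold change 0.23, SE 0.30, edgeR adjusted p = 0.76). Adam10 stood at 0.06 (SE 0.30), Adam15 at 0.42 (SE 0.31) and the metalloproteinase inhibitor Timp3 at -0.26 (SE 0.45). Adam8 was the exception in size, with 4 and 15 reads against 132 and 116. Its log2 fold change of 3.25 (SE 0.61) narrowly missed the threshold (edgeR adjusted p = 0.0548), and DESeq2 called it.

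Inhibitors of the receptors and ubiquitin ligases that act on them gave 19 tested genes with a median of 0.05. Errfi1, a feedback inhibitor that binds the Egfr kinase, had 216 and 129 reads in DMSO (replicates 1 and 2) against 305 and 395 in NEDD8i (replicates 1 and 2) (log2 fold change 0.65, SE 0.30, edgeR adjusted p = 0.329). Nedd4, a ubiquitin ligase, stood at -0.80 (SE 0.33) and its relative Nedd4l at 1.50 (SE 0.38, edgeR adjusted p = 0.109). Lrig3, of the Lrig family of receptor regulators, stood at -1.28 (SE 0.34, edgeR adjusted p = 0.123). The 26 adaptors and signal relay genes had a median of 0.09. Stat3, a transcription factor that ErbB and cytokine receptors activate, had 590 and 639 reads against 1572 and 1639 (log2 fold change 0.97, SE 0.30, edgeR adjusted p = 0.169), and Plcg1, a phospholipase that docks on Egfr, stood at -0.68 (SE 0.33). The other ligands, Erbb4, Adam8, Adam10, Adam17, Nedd4l and Lrig3 lie outside the rule for named genes and were picked out after their values were seen.

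**Figure D4:**
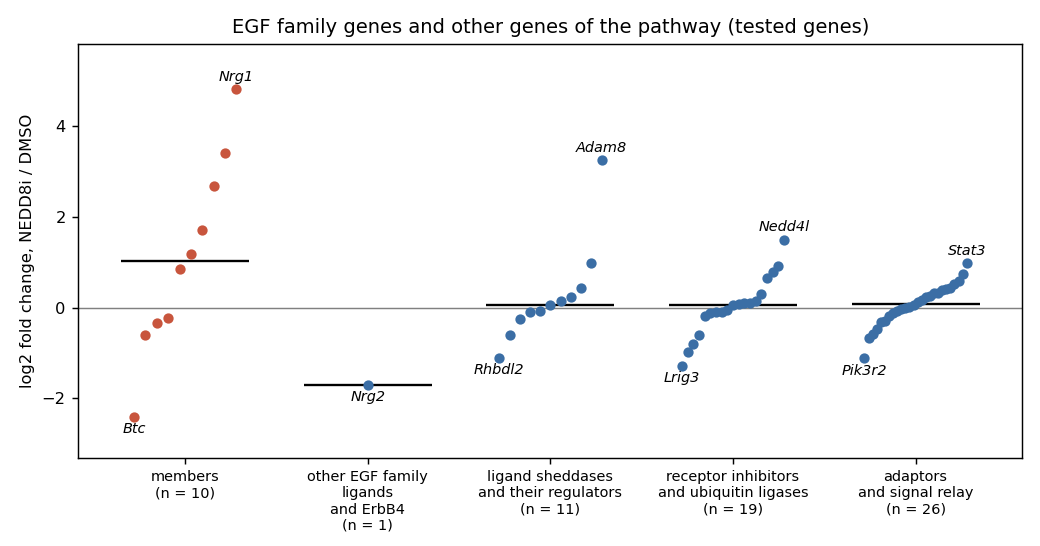
Log2 fold change of NEDD8i over DMSO for the tested EGF family members (red) and for the tested genes of 4 pathway lists (blue), 1 point a gene, with black lines for medians. The members spread from -2.40 to 4.81, and the 26 adaptor and relay genes lie within -1.12 and 0.97. Sheddases and their regulators run from -1.10 (Rhbdl2) to 3.25 (Adam8). Receptor inhibitors and ubiquitin ligases run from -1.28 (Lrig3) to 1.50 (Nedd4l), and Nrg2 stands at -1.70.

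Markers of the cells that make or receive these ligands also differed between libraries. Wound keratinocyte genes (8 of 8 found, among them Krt6a and Sprr1a) summed to 541 and 633 CPM in DMSO replicates 1 and 2. In NEDD8i replicates 1 and 2 they summed to 6287 and 6605 CPM. Called higher were 4 of 8, where 0.667% of all tested genes were. The marker lists were chosen with earlier results of these data known, so counts of calls in them are a description and not a test. Krt16, Krt6b and Sprr1b were not called, with DMSO libraries 8.27-fold, 27.3-fold and 5.50-fold apart. Krt17 overlapped between the groups (log2 fold change 0.24). Spinous and granular keratinocyte genes (10 of 10), of the differentiating layers that receive Egfr signals, summed to 4315 and 7662 CPM in DMSO against 3876 and 3390 CPM after NEDD8i. Of these, 2 were called lower, where 0.114% of all tested genes were. They were Lor (log2 fold change -3.05, edgeR adjusted p = 0.0377) and Flg2 (-3.69, adjusted p = 0.0128), both of the cornified layer. Flg stood at -2.34 (edgeR adjusted p = 0.0548). Ivl went the other way, with both NEDD8i libraries above both DMSO libraries (0.64, edgeR adjusted p = 0.366). Krt10 was lower in both NEDD8i libraries but not called. Krt1, Dsc1, Dsg1a, Tgm1 and Tgm3 overlapped between the groups. Basal keratinocyte genes (7 of 7) summed to 3019 and 5733 against 5111 and 4414 CPM, with 0 called. Macrophage and Langerhans cell genes (9 of 9) summed to 87.2 and 75.1 CPM against 154 and 145 CPM, with Cd74 giving the most reads. Of the 6 tested, 0 were called. Cd74, C1qa, C1qb, Cd207, Cd68 and Lyz2 had both NEDD8i libraries above both DMSO libraries, as did 25.0% of all tested genes. Csf1r (log2 fold change -0.22), Adgre1 and Itgam overlapped between the groups. The neutrophil list summed to 16.1 and 14.6 against 118 and 79.1 CPM, mostly from S100a8, which keratinocytes also express, and S100a9. S100a9 had 3 and 31 reads in DMSO (replicates 1 and 2) against 388 and 237 in NEDD8i (replicates 1 and 2). Ly6g, Camp, Ltf and Ngp were at 0 in all 4 libraries, and Csf3r and Retnlg had at most 5 reads in a library. Whether neutrophils were present was not tested. Dermal fibroblast genes (7 of 7), a source of neuregulin in some tissues, summed to 55.5 and 7.04 against 36.4 and 72.7 CPM. Most of the sum in DMSO replicate 1 was Dcn (345 of 390 reads). Col3a1, Dpt, Pdgfra, Col1a2 and Col1a1 had both NEDD8i libraries above both DMSO libraries, as did 25.0% of all tested genes. Their log2 fold changes were 2.11 to 3.29 in the 4 of them that were tested. Reads in DMSO replicates 1 and 2 were few, for example 7 and 2 for Col3a1 and 2 and 0 for Pdgfra. Dcn (log2 fold change -0.45) and Lum (at most 4 reads in a library) overlapped between the groups. Dpt, a dermal matrix protein, was called higher, with 7 and 3 reads in DMSO against 56 and 73 after NEDD8i (edgeR adjusted p = 0.0446). The marker genes given with values here were picked out after those values were seen. T cell genes summed to 35.5 and 30.5 against 27.0 and 22.7 CPM, with Trac at 0. Melanocyte and Schwann cell genes, whose cells use Erbb3, summed to 362 CPM in DMSO replicate 1 and to 59.4 to 63.2 CPM in the other libraries. Sebaceous genes summed to 134 to 210 CPM. The part of these cells in the members' differences was not tested, and in such bulk samples fewer cells of a type and less RNA per cell cannot be told apart.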

How the data were processed

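The deposited data are raw read counts per gene, in 1 table of 4 libraries (QuantSeq 3′ FWD, per the labels' protocols), with exon coordinates and exon lengths in bases, another unit that was used only to place genes. The submitters' processing notes name STAR, featureCounts, DESeq2, GRCm38 and GRCm39. Versions, strand setting and treatment of multi-mapping reads are not given in the sources used here. Only 2.7% of 52029 genes matched to GENCODE M21 (GRCm38) had the same start, so coordinates are taken to be GRCm39. All 4 sample columns were used, and no library was a duplicate of another (chi-square per degree of freedom 24.1 or more).

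Counts were tested in R 4.3.3 with edgeR 4.0.16: filterByExpr (minimum count 10, minimum total 15), TMM factors (1.18, 0.983, 0.913 and 0.946 for DMSO replicates 1 and 2 and NEDD8i replicates 1 and 2), robust quasi-likelihood test on group alone, Benjamini-Hochberg adjustment over 11388 genes at 0.05. Fold changes are NEDD8i over DMSO, and log2 CPM used a prior count of 2. The steps were tested on simulated data. Alternatives were DESeq2 1.42.0, limma-voom (limma 3.58.1), library sizes without TMM, RLE factors, no filter, a fixed filter (10 counts and a CPM above 1 in 2 libraries), ribosomal RNA genes left out, a replicate block and each library left out. A crossed block was added after seeing the data. Members, pathway lists and marker lists were chosen with earlier results of these data known. Named were all members, pathway genes past the threshold or else the 2 of each list with the largest change at a mean log2 CPM of at least 4, genes between clustered members with their nearest neighbours of at least 10 reads, and the 3 genes most like the member with the largest change. Promoters are RefSeq's on GRCm38.p6, matched by symbol for 6 of 10 members, with Hbegf left out of the search.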

Additional observations from a re-analysis of the deposited data

How the results depend on the processing

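The signs of all 10 log2 fold changes held under every alternative that kept the 4 libraries, and in fits without 1 library except for Ereg and Erbb3. Ereg ranged from -1.32 to 0.41 (without NEDD8i replicate 1) and Erbb3 from -0.67 to 0.044 (without DMSO replicate 2). The members called higher numbered 3, or 5 without a filter, 4 (Areg added) with DESeq2 and with the crossed block, 2 with library sizes without TMM or limma-voom, and 2 to 6 with 1 library left out. Those called lower numbered 0, or 1 (Btc) without a filter, with DESeq2, with the replicate block and with the crossed block, and 0 to 2 with 1 library left out. Pathway genes called numbered 0, or 2 without a filter, 1 (Adam8) with DESeq2, the replicate block and the crossed block, and 0 to 8 with 1 library left out. Over all genes 89 were called, 85.4% of them higher, against 47 (80.9% higher) with library sizes without TMM, 703 (54.8%) without a filter, 387 (57.6%) with DESeq2, 289 (63.0%) with the replicate block and 493 (50.9%) with the crossed block. With 1 library left out 44 to 1358 were called, of which 53.9% and 47.6% were higher when DMSO replicate 1 or 2 was dropped, and 93.2% and 91.3% when NEDD8i replicate 1 or 2 was. The cause was not tested. Library sizes without TMM moved the median of all genes by -0.22 on the log2 scale. Deviations of same-numbered libraries from their group means correlated at -0.13, so no pairing by replicate number was seen. With 2 libraries per group this is a single correlation, which cannot exclude pairing. With a single library in a group, that library is assumed to vary like the others. Depth limits Nrg1 among the members and Egf, Nrg3, Nrg4, Erbb4 and Adam12 among the pathway genes, all at 7 reads or fewer in each DMSO library.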
